A study of Caenorhabditis elegans with 27 samples.

Results

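The endoplasmic reticulum stress and folding genes of Caenorhabditis elegans were followed in whole worms as they aged, with and without an extract of black rice in the food. The 10 genes were chosen by name out of 46934 genes in the count table: the stress sensors ire-1, pek-1 and atf-6, the transcription factor gene xbp-1, and the folding genes hsp-3, hsp-4, enpl-1, crt-1, pdi-1 and pdi-2. All 10 were found in the table and all 10 passed the filter on low counts, as did 19290 genes in all.

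Secreted and membrane proteins fold in the endoplasmic reticulum (ER), and when unfolded protein builds up there the cell answers with the unfolded protein response. IRE-1, an ER membrane kinase and endoribonuclease, cuts the xbp-1 messenger RNA so that it encodes the active XBP-1 transcription factor. PEK-1 phosphorylates a translation initiation factor and slows protein synthesis, and ATF-6 is a transcription factor tethered to the ER membrane until it is cleaved. BiP-type Hsp70 chaperones (HSP-3 and HSP-4), calreticulin, endoplasmin and protein disulfide isomerases do the folding work, and hsp-4 is a widely used reporter of the response in this worm.

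Wild-type N2 worms were synchronised at the last larval stage (L4) and kept on live Escherichia coli OP50, the standard food strain, or on OP50 mixed with black rice extract (BRE). Worms on OP50 were sampled at days 1, 6, 11, 15 and 17 and worms on BRE at days 6, 11, 15 and 17, with 3 libraries in each of the 9 groups and 27 in all. Every library came from a pool of whole worms, all groups shared the N2 background and the OP50 food, and BRE had no day 1 group of its own. The labels list several extract concentrations without saying which one the sequenced worms received. The libraries held 101.61 to 164.34 M counts each (median 137.09 M). Levels are given in CPM, the count of a gene per M (mega) counts of its library, on library sizes normalised by the trimmed mean of M-values (TMM), as mean ± SD with n = 3, and differences as log2 differences of CPM fitted by edgeR. A gene was called changed at an adjusted p under 0.05, and since nothing says that replicates came from separate cultures, p-values measure the spread between these libraries, which may be technical.

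Some libraries stood apart. Within each group, genes with over 3000 bp of exon (1285 genes) were compared with genes under 1000 bp (2030 genes), each library against the other 2 of its group. In 5 libraries the long genes were lower, by log2 differences from -1.1 to -0.39: replicate 1 of OP50 at days 6, 11, 15 and 17, and replicate 3 of BRE at day 11. In the other 22 libraries this difference lay between -0.30 and 0.83. Results that rest on the 5 libraries are given with and without them.

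Per length, crt-1 was the highest of the 10 genes and atf-6 the lowest, and the sensors lay far below the folding genes. Averaged over the 9 groups, the level per kilobase of annotated exon was 775 CPM for crt-1, 346 for enpl-1, 302 for pdi-1, 279 for xbp-1, 277 for pdi-2, 268 for hsp-3 and 229 for hsp-4. It was 48.3 CPM per kilobase for ire-1, 21.7 for pek-1 and 14.6 for atf-6. Over the 9 groups, crt-1 (686 to 837 CPM per kilobase) overlapped no other gene, and the 3 sensors overlapped neither the folding genes nor one another. The means of the remaining 6 genes overlapped between neighbours in this order. The 10 genes together took 0.459% ± 0.013 of all counts at day 1, 0.425% ± 0.004 at day 6 and 0.522% ± 0.075 at day 17 on OP50.

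With age on OP50, xbp-1 fell from day 1 to day 6 and then rose past its day 1 level, pdi-2 fell steeply to day 6 and partly came back, and hsp-3 stood lower at every later day than at day 1 (with library totals alone, the pdi-2 and hsp-3 values at day 17 were no longer called). In the fit of group means with TMM and all libraries, hsp-4, pek-1, atf-6, crt-1 and pdi-1 were called at no day against day 1. Between the most different groups, the mean CPM of xbp-1 differed by 2.22-fold and that of pdi-2 by 1.83-fold, against 1.38-fold for hsp-4 and 1.22-fold for crt-1, the smallest span of the 10.

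**Figure D1:**
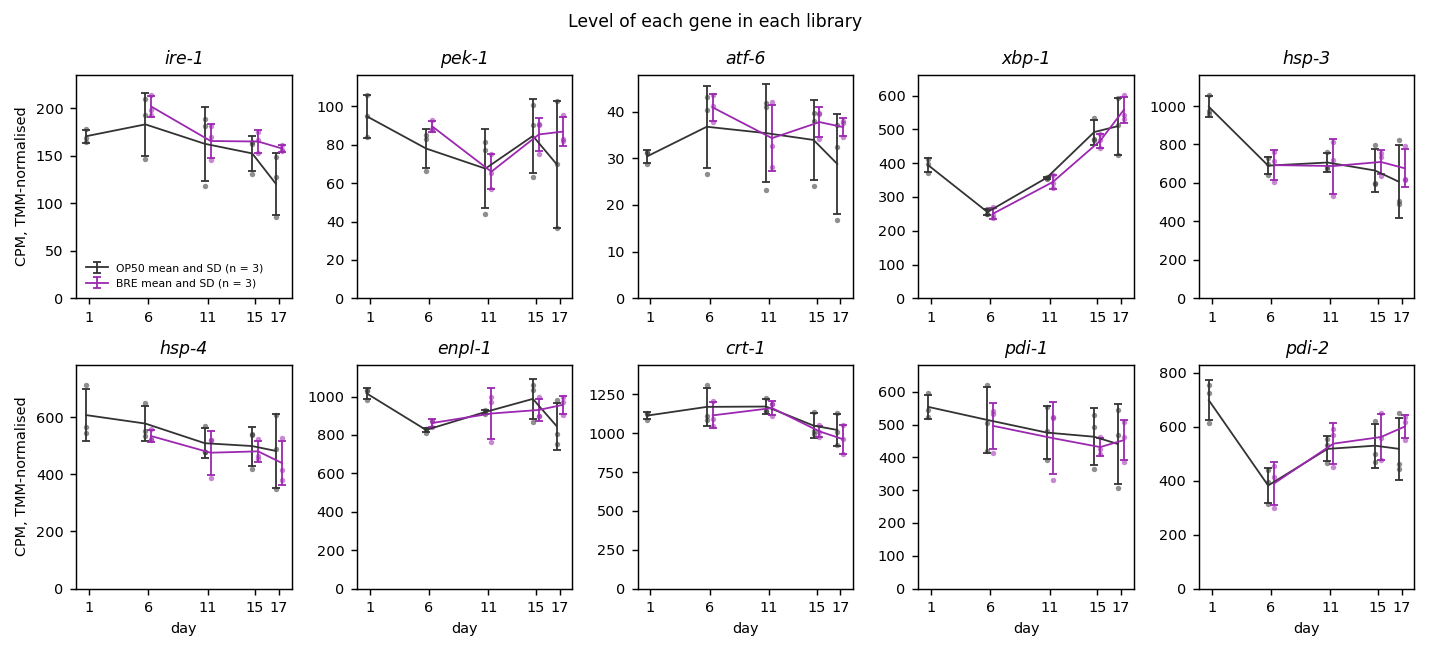
Level of each of the 10 genes in CPM (vertical axis, from 0, its own scale in each panel) against the day of sampling, with a point for each library and the mean with its SD (n = 3) for each group, OP50 in grey and BRE in purple. The xbp-1 panel shows the low at day 6 and the rise to day 17 on both foods, from 255 to 510 CPM on OP50 and from 251 to 558 CPM on BRE.

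Against day 1, edgeR's quasi-likelihood test with Benjamini-Hochberg adjustment over all genes called 0 of the 10 genes higher and 4 lower at day 6 (xbp-1, pdi-2, hsp-3 and enpl-1), where it called 14% of all genes higher and 19% lower. At an unadjusted p under 0.05, 0 members were higher there or at day 11, and DESeq2 called 0 higher at either day. At day 11 it called 0 higher and 1 lower (hsp-3), against 19.2% and 16.6% of all genes. At day 15 it called 1 higher (xbp-1) and 1 lower (hsp-3), against 26.1% and 21.1% of all genes. At day 17 it called 1 higher (xbp-1) and 4 lower (hsp-3, ire-1, pdi-2 and enpl-1), against 29.1% and 24.8% of all genes. These 4 comparisons share the day 1 libraries. Any difference among the 5 days was called for 4 of the 10 genes (xbp-1, pdi-2, hsp-3 and ire-1), against 66.2% of all genes.

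The day 17 differences moved with the scaling. With TMM the median log2 difference of all genes was 0.10 at day 17 against day 1, and with library totals alone it was 0.59. At day 6 the same medians were -0.10 and 0.04. Vitellogenin messenger RNAs, which encode yolk, fell from 10.05% of all counts at day 1 to 0.729% at day 17. At day 17 against day 1, hsp-3 stood 0.82 below the median of all genes with TMM and 0.83 below with totals, and xbp-1 stood 0.27 above it with either. A change of scaling shifts all genes nearly alike, so values relative to that median stay close by construction. They do not show which scaling is right.

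Of the 3 sensors, ire-1 was the highest. On OP50 its levels in replicates 1, 2 and 3 were 165, 168 and 178 CPM at day 1, and 146, 193 and 210 CPM at day 6. They were 118, 181 and 189 CPM at day 11, 131, 164 and 162 CPM at day 15, and 85.2, 149 and 127 CPM at day 17. All 3 libraries of day 15 and of day 17 were below all 3 of day 1, at day 15 by a narrow margin, while days 6 and 11 overlapped day 1. The log2 difference was -0.50 (SE 0.17, edgeR adjusted p = 0.019) at day 17 against day 1, with TMM scaling, and -0.0089 (adjusted p = 0.97) with library totals alone. Replicate 1, the lowest at each of these later days, is in each case a library low in long transcripts, and ire-1 has 3401 bp of exon. Without OP50 day 17 replicate 1 the difference was -0.22 (edgeR adjusted p = 0.31), and without all 5 libraries low in long transcripts it was -0.22 (adjusted p = 0.057). The call was also lost without day 1 replicate 1, 2 or 3 (edgeR adjusted p = 0.074, 0.082 and 0.14). With only the 2 groups fitted it was lost too (edgeR adjusted p = 0.084).

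The pek-1 gene encodes the worm PERK and has 3709 bp of exon. It lay between 36.8 CPM (OP50 day 17 replicate 1) and 106 CPM (OP50 day 1 replicate 1). Its OP50 group means were 94.9 ± 11.1, 78.1 ± 10.2, 67.6 ± 20.4, 84.6 ± 19.2 and 69.9 ± 33.1 CPM at days 1, 6, 11, 15 and 17 (SD, n = 3). Day 11 lay below day 1 without overlap, and the groups overlapped at days 6, 15 and 17. In the fit of group means none of the 4 differences from day 1 was called, with -0.49 (SE 0.25, edgeR adjusted p = 0.14) at day 11 and -0.44 (SE 0.25, adjusted p = 0.15) at day 17. With the replicate number as a block, pek-1 was called lower at day 11 (-0.54, edgeR adjusted p = 0.044) and day 17 (-0.52, adjusted p = 0.041). Without OP50 day 17 replicate 2 it was called lower at day 17 (-0.84, edgeR adjusted p = 0.00897). Leaving out single libraries gave values from -0.68 to -0.28 at day 11 and from -0.84 to -0.05 at day 17. Without the libraries low in long transcripts pek-1 was called at no day.

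The atf-6 gene, with 2402 bp of exon, was the lowest of the 10 in every group. At day 1 its levels were 31.2, 31.3 and 28.9 CPM, and at day 17 on OP50 16.8, 37.1 and 32.4 CPM. The lowest value of every later OP50 group was again replicate 1, and the other 2 replicates lay above all 3 day 1 libraries. With all libraries no difference from day 1 was called (0.27, SE 0.25, edgeR adjusted p = 0.42 at day 6, and -0.08, SE 0.25, adjusted p = 0.80 at day 17). Without the 5 libraries low in long transcripts, atf-6 was called higher than at day 1 at each later day, by 0.50, 0.49, 0.42 and 0.28 at days 6, 11, 15 and 17 (edgeR adjusted p = 0.0019, 0.0017, 0.0034 and 0.037). In that fit ire-1 was called 0.28 higher at day 6 (edgeR adjusted p = 0.030).

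The sensor levels moved with the length dependence of the OP50 libraries. In the 5 libraries low in long transcripts, the mean log2 level of ire-1, pek-1 and atf-6 was 0.11 to 0.98 below that of the other 2 libraries of the same group. In the other 22 libraries it lay between -0.22 and 0.74. The same quantity for the 6 folding genes lay between -0.38 and 0.21 in the 5 libraries and between -0.42 and 0.43 in the others. For xbp-1, with 1446 bp of exon, it lay between -0.38 and -0.02 in the 5 libraries and between -0.13 and 0.34 in the others. The part of this in the results on the sensors was not tested beyond the fits without those libraries.

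**Figure D2:**
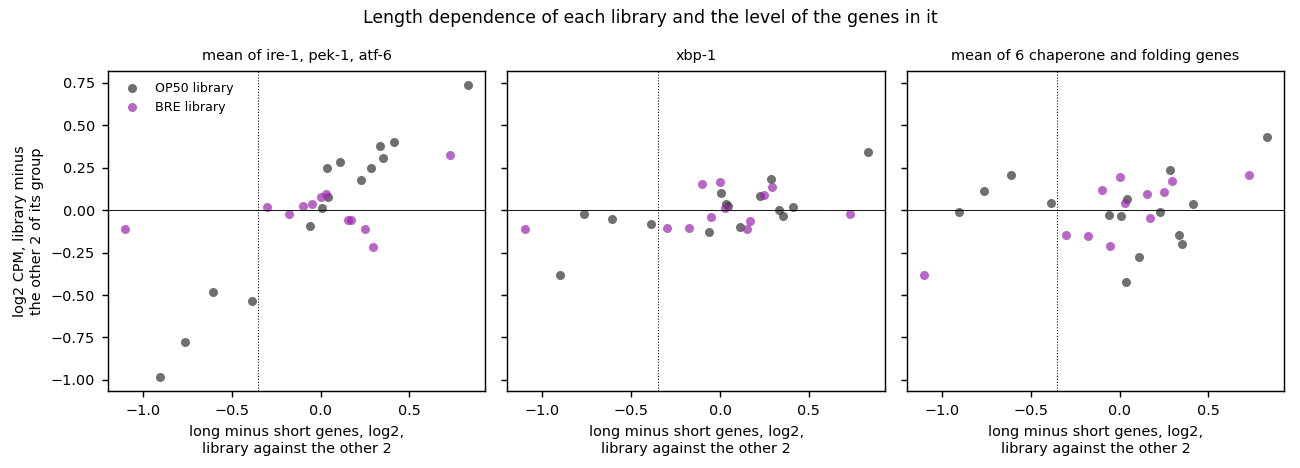
Each point is a library (27, OP50 grey, BRE purple). The horizontal axis gives the log2 level of long against short genes relative to the other 2 libraries of the group, with a dotted line at -0.35, and the vertical axis the log2 CPM of the named genes relative to the same libraries. The sensor panel runs from -0.98 to 0.74 with the 4 low OP50 libraries at the lower left, while in the folding gene panel those 4 lie between -0.01 and 0.21.

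The xbp-1 gene changed most. On OP50 its levels in replicates 1, 2 and 3 were 399, 413 and 371 CPM at day 1, 250, 266 and 251 CPM at day 6, and 353, 360 and 358 CPM at day 11. They were 473, 535 and 469 CPM at day 15, and 424, 592 and 513 CPM at day 17. Day 6 lay below every other OP50 day without overlap, and all 3 libraries of day 15 and of day 17 lay above all 3 of day 1. From day 1 to day 6 xbp-1 fell by 0.63 on the log2 scale (SE 0.10, edgeR adjusted p = 7.5e-05), lower in 3 of 3 libraries. It stood 0.32 above day 1 at day 15 (edgeR adjusted p = 0.013) and 0.37 above at day 17 (SE 0.10, adjusted p = 0.0042). The fall to day 6 kept its direction and its call in every alternative run. The day 15 call was lost without OP50 day 15 replicate 2 (0.24, edgeR adjusted p = 0.12), and the day 17 call without OP50 day 17 replicate 2 (0.24, adjusted p = 0.077) and with only those 2 groups fitted (0.40, adjusted p = 0.080).

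Between neighbouring days on OP50, xbp-1 was the single member called higher from day 6 to day 11 (0.48, edgeR adjusted p = 0.0020), where 12.6% of all genes were called higher, 3.89% lower and 0 members lower. With the replicate number as a block, pdi-2 was called higher there too (0.45, adjusted p = 0.0058), which made 2 members. From day 11 to day 15, xbp-1 rose by a further 0.46 (edgeR adjusted p = 0.0082), where 3.07% of all genes were called higher and 2.88% lower, again with 0 members lower. Leaving out either OP50 day 11 replicate 3 (edgeR adjusted p = 0.050) or day 15 replicate 2 (0.068) ended that call. From day 15 to day 17, edgeR called 0 members and 0% of all genes, with 0 members and 1469 genes at an unadjusted p under 0.05, and DESeq2 called 0 members and 112 genes.

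From day 6 to day 17 the level of xbp-1 about doubled on both foods. On BRE its levels in replicates 1, 2 and 3 were 238, 269 and 246 CPM at day 6, 366, 340 and 326 CPM at day 11, 486, 469 and 444 CPM at day 15, and 542, 602 and 531 CPM at day 17. No BRE day overlapped the next for xbp-1. The day 17 minus day 6 difference was 1.00 on OP50 (SE 0.10, edgeR adjusted p = 7.0e-08) and 1.15 on BRE (SE 0.10, adjusted p = 7.4e-09), higher in 3 of 3 libraries on each. Both calls held in every alternative run, with values from 0.88 to 1.32 on OP50 and from 1.09 to 1.41 on BRE. The BRE rise exceeded the OP50 rise by 0.16 with an interval from -0.14 to 0.45, and the test of that difference called 0 members and 0% of all genes. At an unadjusted p under 0.05 it found 0 members and 353 genes, and DESeq2 called 0 members and 6 genes.

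In the same comparison of day 17 with day 6, 2 of the 10 genes were called higher and 1 lower on OP50, against 32.5% and 23.5% of all genes, and 2 higher and 0 lower on BRE, against 32.7% and 22% of all genes. The genes called higher were xbp-1 and pdi-2 on both foods, and the gene called lower on OP50 was ire-1 (-0.60, SE 0.18, edgeR adjusted p = 0.0062). For ire-1, leaving out OP50 day 17 replicate 1 (-0.35, edgeR adjusted p = 0.10) or day 6 replicate 3 (-0.47, adjusted p = 0.052) ended the call. The call was also lost with library totals alone and with only the 2 groups fitted, and it held without the 5 libraries low in long transcripts. With the replicate number as a block, 2 members were called lower on BRE, ire-1 (-0.35, adjusted p = 0.023) and crt-1 (-0.21, adjusted p = 0.042). Both were also called lower on BRE without the 5 libraries, ire-1 at -0.36 (edgeR adjusted p = 0.0016) and crt-1 at -0.22 (adjusted p = 0.046). With only the 2 groups fitted, ire-1 was called lower on BRE (-0.34, edgeR adjusted p = 0.0029). The median of the 10 log2 differences was -0.19 on OP50 and -0.09 on BRE, where the median of all genes was 0.16 and 0.21.

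**Figure D3:**
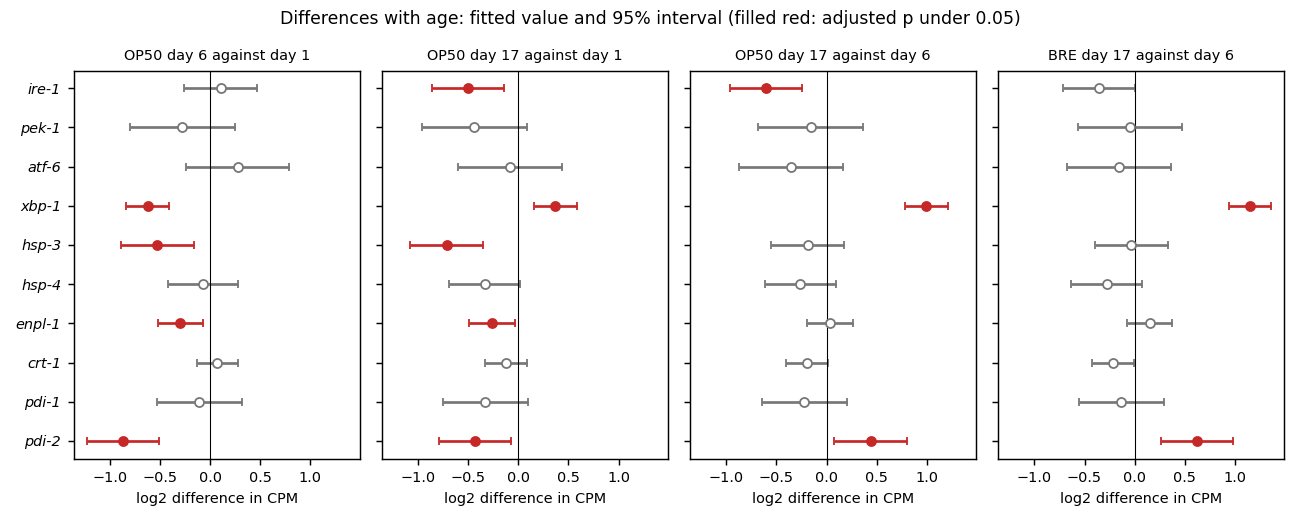
Fitted log2 differences in CPM (horizontal axis) with 95% intervals for the 10 genes (vertical axis) in 4 comparisons between ages, with filled red points where the adjusted p was under 0.05. In both panels of day 17 against day 6, xbp-1 stands farthest to the right (1.00 on OP50 and 1.15 on BRE), and in the panel of day 6 against day 1 pdi-2 stands farthest to the left (-0.87).

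Counts were summed per gene, so cut and uncut xbp-1 messenger RNA were not told apart, and the values describe the total. In whole worms, fewer cells of a type and less RNA per cell cannot be told apart either. Pharynx markers also fell to day 6 and rose by day 17 on OP50. Of 7 marker genes, 5 were called lower at day 6 against day 1 (19% of all genes). At day 17 against day 6, 5 of the 7 were called higher (32.5% of all genes). Their summed level was 83.0 to 107 CPM at day 1, 37.4 to 49.9 CPM at day 6 and 62.6 to 109 CPM at day 17 on OP50, and none was at 0 in any group. One of the 7, pha-4, the pharynx organ identity factor, also had the pattern most like that of xbp-1 among 8422 genes with a mean of at least 5 CPM over all libraries. Over the 9 group means of log2 CPM, Pearson's r with xbp-1 was 0.998 for pha-4, 0.997 for C48E7.6, 0.997 for nhr-45, 0.996 for nhr-126 and 0.994 for twk-8, a description over points that share libraries. Their levels were low, and 4 of the 5, all but nhr-45, were under 5 CPM at day 6 on OP50. The pha-4 level was 17.4 ± 10.3 CPM at day 1, 3.52 ± 1.28 at day 6 and 27.8 ± 9.0 at day 17 on OP50. The other 6 pharynx markers summed to 81.7 ± 4.4, 39.2 ± 6.4 and 59.5 ± 14.6 CPM at the same days. At days 11 and 15 these 6 summed to 40.6 ± 3.9 and 51.8 ± 7.2 CPM. Unlike xbp-1, they overlapped their day 6 levels at day 11 and stayed below day 1 at day 17. The part of the pharynx markers in the xbp-1 result was not tested.

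The paired BiP genes, hsp-3 and hsp-4, are close relatives, and the sources used here do not say how reads matching both were counted, so their split carries that uncertainty. For hsp-3, replicates 1, 2 and 3 held 1058, 975 and 956 CPM at day 1, and 700, 730 and 641 CPM at day 6. They held 673, 763 and 683 CPM at day 11, 596, 797 and 602 CPM at day 15, and 507, 826 and 488 CPM at day 17. All 12 later OP50 libraries lay below all 3 day 1 libraries. The log2 difference from day 1 was -0.53 (SE 0.18, edgeR adjusted p = 0.024) at day 6, -0.50 (adjusted p = 0.032) at day 11, -0.58 (adjusted p = 0.0096) at day 15 and -0.72 (SE 0.18, adjusted p = 0.0018) at day 17. The day 17 call held without each of the 6 libraries in turn (from -1.01 to -0.52), while the day 6 call was lost without any single one of them (adjusted p from 0.066 to 0.12). The day 11 call was lost without each of 5 of its 6 libraries (edgeR adjusted p from 0.094 to 0.14; it held without OP50 day 11 replicate 2) and without the 5 libraries low in long transcripts (0.070). The day 15 call was lost without day 1 replicate 1 or 3 or day 15 replicate 1 or 3 (adjusted p from 0.053 to 0.11). With library totals alone the direction stayed and no day was called, with -0.24 (edgeR adjusted p = 0.20) at day 17. From day 6 to day 17 hsp-3 was called on neither food, at 690 ± 45 CPM at day 6 and 607 ± 190 CPM at day 17 on OP50, and 693 ± 78 and 676 ± 98 CPM on BRE (SD, n = 3).

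For hsp-4, replicates 1, 2 and 3 held 566, 545 and 713 CPM at day 1, 650, 534 and 552 CPM at day 6, and 570, 479 and 480 CPM at day 11. They held 540, 538 and 420 CPM at day 15, and 488, 610 and 349 CPM at day 17. Day 1 and day 17 overlapped because replicate 2 of day 17 lay above 2 of the day 1 libraries. The log2 difference from day 1 was -0.07 (SE 0.17, edgeR adjusted p = 0.78) at day 6 and -0.33 (SE 0.17, adjusted p = 0.10) at day 17, and its day 17 interval ran from -0.69 to 0.02. Without OP50 day 17 replicate 2 it was -0.55 and was called (edgeR adjusted p = 0.020). No alternative called hsp-4 higher than at day 1.

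Ratios of genes within a library do not depend on the scaling. The count of xbp-1 over that of hsp-4 was 0.661 ± 0.125, 0.446 ± 0.057, 0.706 ± 0.075, 0.995 ± 0.120 and 1.103 ± 0.322 on OP50 at days 1, 6, 11, 15 and 17 (SD, n = 3). On BRE it was 0.471 ± 0.040, 0.733 ± 0.097, 0.973 ± 0.074 and 1.28 ± 0.14 at days 6, 11, 15 and 17. All 3 day 17 libraries exceeded all 3 of day 6 on each food, with p = 0.1 in the exact two-sided permutation test, the smallest p that 3 against 3 allows. hsp-4 made up 42.1% ± 4.4 of BiP transcripts per length at day 1 and 48.8% ± 4.0 at day 17 on OP50 (exact two-sided permutation p = 0.3). At day 6 on OP50 its share was 49.97% ± 3.04, with p = 0.9 for day 17 against day 6 in the same exact test. On BRE, which has no day 1 group, its share was 48.06% ± 3.84 at day 6 and 43.7% ± 1.1 at day 17 (exact two-sided permutation p = 0.1), without overlap.

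Yolk and intestinal transcripts, like hsp-3, were lower at days 6 and 17 than at day 1 on OP50. Their summed levels fell further after day 6 (yolk summed to 38662 to 51610 CPM at day 6), while hsp-3 was not called between day 6 and day 17. Of 9 measured intestine markers, 7 were called lower at day 17 against day 1 on OP50 (24.8% of all genes) and 0 higher (29.1%), and their summed level was 4657 to 5257 CPM at day 1 and 887 to 1205 CPM at day 17. All 6 vitellogenin genes were called lower, from a summed 119410 to 127010 CPM at day 1 to 4028 to 9187 CPM at day 17. By day 6, where pdi-2 and xbp-1 were lowest, intestine markers summed to 1701 to 1876 CPM. Body wall muscle markers summed to 3432 to 4732 CPM at day 1, 531 to 1218 CPM at day 6 and 359 to 685 CPM at day 17. Hypodermis markers summed to 608 to 672, 89.7 to 117 and 67.5 to 103 CPM at the same days. Of these 7 genes, 2 were called lower at day 6 against day 1, where 19% of all genes were, so the summed fall does not describe the whole list. Neuron markers summed to 336 to 411, 276 to 333 and 393 to 438 CPM. Germline and oocyte markers summed to 13020 to 13479, 12623 to 13655 and 5028 to 8201 CPM. No marker gene of these lists was at 0 in any group, and their part in the member results was not tested.

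The GRP94 homologue enpl-1, the ER member of the Hsp90 family, had the smallest spread between replicates, with a median coefficient of variation of 5.07%. Its OP50 means were 1016 ± 28, 826 ± 12, 920 ± 11, 988 ± 103 and 846 ± 121.9 CPM at days 1, 6, 11, 15 and 17. The 3 day 6 libraries (812 to 833 CPM) lay below the 3 of day 1 (984 to 1034 CPM). The difference was -0.30 (SE 0.11, edgeR adjusted p = 0.039) at day 6 and -0.26 (SE 0.11, adjusted p = 0.045) at day 17. The day 6 call was lost without each of the 6 libraries in turn and the day 17 call without each of 5 of the 6. Both calls were also lost with size factors of relative log expression, with DESeq2, with no low-count filter and with only the 2 groups fitted. Without the 5 libraries low in long transcripts both were lost too (edgeR adjusted p = 0.0503 and 0.20). The day 6 call was lost with library totals alone (edgeR adjusted p = 0.25). With library totals alone the day 17 difference turned to 0.21 and was called higher (edgeR adjusted p = 0.047).

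Calreticulin, crt-1, binds calcium and sugar chains of folding glycoproteins. Its OP50 means were 1114 ± 23, 1170 ± 122.3, 1172 ± 47, 1049 ± 79 and 1021 ± 103 CPM at days 1, 6, 11, 15 and 17, and its range over all 27 libraries was 867 to 1310 CPM. No difference from day 1 was called with TMM scaling (-0.13, SE 0.10, edgeR adjusted p = 0.30 at day 17). With library totals alone it was called higher at days 11, 15 and 17 (0.39, 0.34 and 0.35), where the median of all genes was 0.39, 0.52 and 0.59. The annotated exons of crt-1 share 92 bp with smut-1 on the opposite strand, whose counts over all libraries summed to 296396, and the sources used here do not say whether counting used strand. The enpl-1 exons share 23 bp with spo-11 in the same way.

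The protein disulfide isomerases pdi-1 and pdi-2 form and rearrange disulfide bonds, and PDI-2 also serves in collagen prolyl hydroxylation for the cuticle. For pdi-2, replicates 1, 2 and 3 held 755, 725 and 616 CPM at day 1, and 438, 395 and 314 CPM at day 6. They held 531, 556 and 466 CPM at day 11, 499, 622 and 468 CPM at day 15, and 463, 649 and 443 CPM at day 17. Day 6 lay below day 1 and below each later OP50 day without overlap, and replicate 2 of days 15 and 17 reached into the day 1 range. The log2 difference was -0.87 (SE 0.17, edgeR adjusted p = 6.0e-04) at day 6 against day 1, a call that held in every alternative run, and -0.43 (adjusted p = 0.041) at day 17. The day 17 call was lost in most alternatives, and with library totals alone the value turned to 0.04 (edgeR adjusted p = 0.82).

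From day 6 to day 17 pdi-2 rose by 0.44 on OP50 (edgeR adjusted p = 0.036) and by 0.62 on BRE (adjusted p = 0.0046). On BRE its libraries held 455, 415 and 300 CPM at day 6 and 616, 635 and 551 CPM at day 17, without overlap. Leaving out day 6 replicate 2, day 6 replicate 3 or day 17 replicate 2 ended the OP50 call (edgeR adjusted p = 0.052, 0.18 and 0.28), and leaving out day 6 replicate 3 ended the BRE call (adjusted p = 0.055).

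For pdi-1 the OP50 means were 554 ± 37, 514 ± 101.6, 475 ± 81, 463 ± 86 and 441 ± 121.2 CPM at days 1, 6, 11, 15 and 17. Replicate 3 was the lowest in all 9 groups. No difference from day 1 was called in the fit of 9 group means (-0.33, SE 0.20, edgeR adjusted p = 0.18 at day 17). With the replicate number as a block, pdi-1 was called lower at day 15 (-0.28, edgeR adjusted p = 0.032) and day 17 (-0.37, adjusted p = 0.0059). Without the 5 libraries low in long transcripts it was called lower at day 17 (-0.43, edgeR adjusted p = 0.040). The count of pdi-2 over that of pdi-1 within a library was 1.26 ± 0.08 at day 1, 0.747 ± 0.039 at day 6 and 1.22 ± 0.33 at day 17 on OP50. All 3 day 6 ratios lay below all 3 of day 1 and of day 17 (exact two-sided permutation p = 0.1 each, the smallest possible).

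The extract gave no called difference in any of the 10 genes. In edgeR's quasi-likelihood test, BRE against OP50 called 0 members at day 6 (0.0156% of all genes called), 0 at day 11 (0.0104%), 0 at day 15 (0%) and 0 at day 17 (0%). With the difference averaged over the 4 days it called 0 members (0.0467% of all genes), and a test of whether the difference varied between days called 0 members (0%). At an unadjusted p under 0.05 there was 1 member at day 17 and 0 in each of the other tests of the extract, and DESeq2 called 0 members in all of them and 13, 7, 59, 3, 30 and 8 genes in the same order. With the replicate number as a block, again 0 members were called at days 6 and 11.

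Averaged over the 4 days, the fitted folds of BRE over OP50 had 95% intervals that lay between 0.826 and 1.33 for all 10 genes. For xbp-1 the averaged log2 difference was -0.01 with an interval from -0.11 to 0.10. For hsp-4 it was -0.10, from -0.28 to 0.08, and for ire-1 0.17, from -0.01 to 0.35. At single days the intervals were wider, and the one that reached highest, of atf-6 at day 17, ran from -0.17 to 0.87.

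The member with an unadjusted p under 0.05 was ire-1 at day 17. Its BRE libraries held 162, 155 and 156 CPM, all above the OP50 libraries at 85.2, 149 and 127 CPM. The difference was 0.39, from 0.03 to 0.75, with an edgeR adjusted p = 0.60 (0.037 before adjustment). OP50 day 17 replicate 1, at 85.2 CPM, is one of the libraries low in long transcripts. Without that library the ire-1 difference was 0.16 and was not called. At day 6, the 3 BRE libraries of pek-1 (93.0, 88.4 and 87.7 CPM) and of enpl-1 (872, 875 and 839 CPM) also lay above the 3 OP50 ones. Their fitted differences there were 0.20 (edgeR adjusted p = 1.0) and 0.06 (adjusted p = 1.0).

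**Figure D4:**
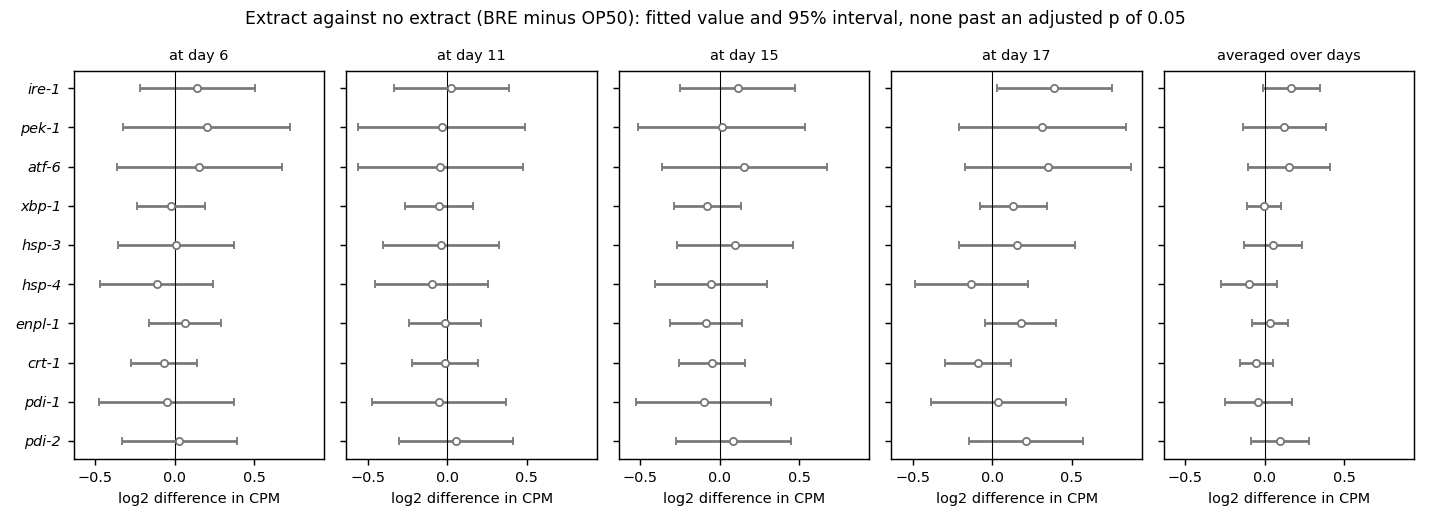
Fitted log2 difference in CPM of BRE minus OP50 (horizontal axis) with its 95% interval for the 10 genes (vertical axis) at each shared day and averaged over the 4 days. Every averaged interval spans 0, the one of ire-1 most narrowly (from -0.01 to 0.35).

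Other genes of ER folding and quality control fell more often than they rose at day 17 against day 1 on OP50. Over lists written with earlier results of these data known, 7 of 64 tested genes were called higher and 26 lower, against 29.1% of all genes called higher and 24.8% lower, and the median log2 difference was -0.24 where that of all genes was 0.10. These shares are also the background for the single lists. With library totals alone the split turned to 25 higher and 8 lower. The fall was widest among genes of protein entry into the ER, where 7 of 10 were called lower and 0 higher (median -0.70). The translocon-associated proteins, which sit beside the import channel, led it: trap-2 went from 231 ± 20 to 69.3 ± 18.2 CPM (-1.74, SE 0.19, edgeR adjusted p = 9.6e-08). trap-1 fell by 1.61 on the log2 scale (SE 0.19, edgeR adjusted p = 3.1e-07) and trap-4 by 1.13 (SE 0.12, adjusted p = 7.2e-08). The list of protein entry also named sec-61.a, sec-61.b, sec-61.g and sec-62. These symbols did not match the count table, so the 10 tested genes leave them out.

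Of 10 genes of glycoprotein quality control, 6 were called lower and 1 higher (median -0.43). The glucosyltransferase uggt-1, which marks misfolded glycoproteins for another round of folding, went from 138 ± 1 to 68.4 ± 20.8 CPM (-1.02, edgeR adjusted p = 2.0e-04). The glucosidase gene mogs-1 fell by 0.67 on the log2 scale (edgeR adjusted p = 5.9e-04), and ribo-1, of the oligosaccharyltransferase, by 0.34 (adjusted p = 0.0017). The related gene uggt-2 went the other way, from 0.260 ± 0.014 to 1.66 ± 0.16 CPM (2.66, edgeR adjusted p = 7.1e-09), at a level far below that of uggt-1.

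Of 12 genes of ER-associated degradation, 5 were called lower and 0 higher (median -0.26). They included cdc-48.1 and cdc-48.2, which encode the ATPase that pulls proteins from the ER, at -0.94 (edgeR adjusted p = 3.0e-04) and -0.75 (adjusted p = 0.0097), and sel-1 at -0.54 (adjusted p = 2.4e-04). Of 14 genes of oxidative folding and co-chaperones, 2 were called higher and 4 lower (median -0.09). Those called higher were fkb-3, a peptidyl-prolyl isomerase gene (0.80, edgeR adjusted p = 0.0015), and R12E2.13 (0.59, adjusted p = 0.0023). T14G8.3 (-0.67, edgeR adjusted p = 0.0013), T24H7.2 (-0.32, adjusted p = 0.0023) and pdi-6, another disulfide isomerase gene (-0.23, adjusted p = 0.044), were among those called lower.

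Of 7 further regulators and genes of the translation arm, 4 were called lower and 0 higher (median -0.50). The bZIP factor gene atf-4 went from 60.5 ± 13.2 to 25.2 ± 2.6 CPM (-1.26, SE 0.17, edgeR adjusted p = 2.5e-06), gcn-2, an initiation factor kinase, stood at -0.72 (adjusted p = 0.012), and eif-2A at -0.53 (adjusted p = 8.3e-04). Of 11 tested abu genes, which are known as activated when the unfolded protein response is blocked, 4 were called higher and 0 lower (median 1.99), all from low levels. abu-11 went from 0.814 ± 0.224 to 3.94 ± 1.25 CPM (2.28, edgeR adjusted p = 3.1e-05) and abu-10 from 0.137 ± 0.012 to 1.23 ± 1.21 CPM (3.15, adjusted p = 5.3e-04). For comparison, 11 of 21 cytosolic chaperone genes were called lower and 0 higher (median -0.40), and 4 of 10 mitochondrial ones lower and 0 higher (median -0.32). For BRE against OP50 averaged over days, edgeR called 0 genes in every one of these lists.

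**Figure D5:**
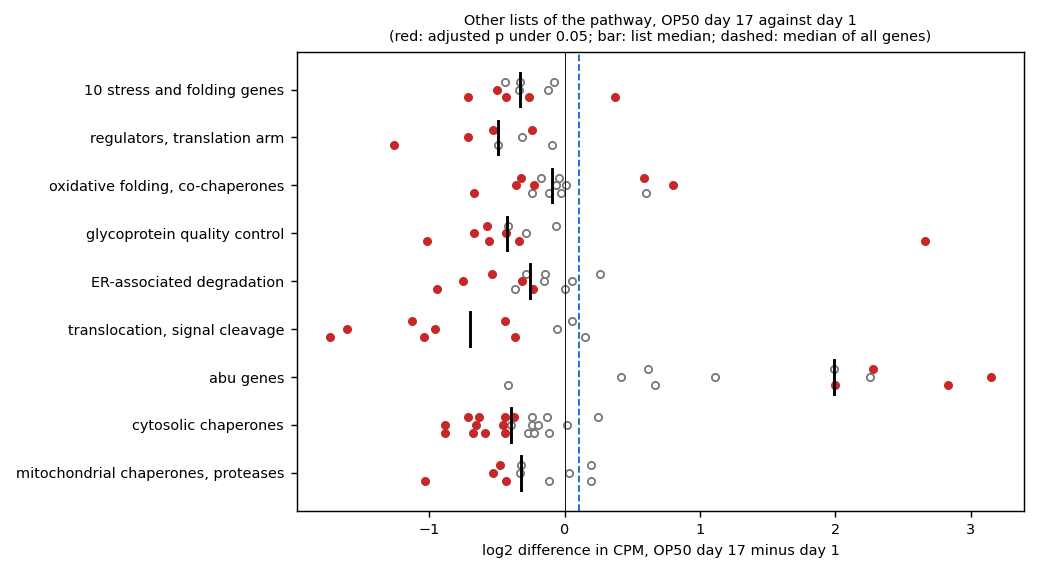
Log2 difference in CPM, OP50 day 17 minus day 1 (horizontal axis), for each tested gene of 9 lists (vertical axis), filled red where the adjusted p was under 0.05, with a bar at each list's median and a dashed line at the median of all genes (0.10). The translocation list reaches -1.74 and has the lowest median (-0.70), and the abu list lies mostly to the right of 0 (median 1.99).

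Among the 10 genes themselves, the pattern over the 9 group means of log2 CPM was most alike for hsp-4 and pdi-1 (Pearson's r 0.908) and least alike for xbp-1 and crt-1 (r -0.815). These points share libraries and are a description. Outside the 10, the genes most like hsp-4 were F41G3.10 (0.973), ubc-20 (0.971), enu-3.6 (0.969), act-3 (0.966) and sdhd-1 (0.963), all lower at day 17 than at day 1 by their OP50 means.

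By the WBcel235 annotation, matched by WormBase gene identifier, xbp-1 (WBGene00006959) lies on the plus strand of chromosome III at 4193809 to 4195358. hsp-4 (WBGene00002008) lies on the minus strand of chromosome II at 7350112 to 7352645, and hsp-3 (WBGene00002007) on the minus strand of chromosome X at 6089028 to 6092124. pdi-2 (WBGene00003963) lies on the plus strand of chromosome X at 4524155 to 4526536, and ire-1 (WBGene00002147) on the minus strand of chromosome II at 8112243 to 8124910. The sources used here do not name the genome build behind the deposited counts.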

How the data were processed

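RNA of whole worms was sequenced in 27 libraries. The authors deposited raw counts per gene. Per the submitters' processing notes, reads went through FastQC, Trimmomatic, HISAT2 2.0.5, SAMtools 1.7 and featureCounts. The sources used here do not give their settings, the strand setting, the build or the annotation.

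From the counts, edgeR 4.0.16 (R 4.3.3) kept genes by filterByExpr over groups (19290 of 46934), scaled by TMM (factors 0.7993 to 1.253) and fitted 9 group means by quasi-likelihood, with Benjamini-Hochberg adjustment over all genes tested, called under 0.05, in 17 comparisons. The code was tested on simulated data. SE is the log2 difference over the root of F, and intervals are 95%. CPM per kilobase used the union of annotated exons. Replicates were not copies of one another: the lowest chi-square per degree of freedom between counts of 2 replicates was 44.0. Of 181 genes in the lists, 172 matched the table.

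Replicate numbers were taken as pairing samples where every same-numbered pair's deviations from the group means correlated over 0.1. This held for BRE and OP50 at day 6 (0.194 to 0.307) and day 11 (0.218 to 0.498), and for OP50 day 11 and day 6 (0.154 to 0.302). It also held for day 17 and day 6 on OP50 (0.138 to 0.255) and BRE (0.148 to 0.256). The rule did not weigh pairs of unlike numbers, which reached 0.231 for BRE and OP50 at day 11, above the lowest same-numbered value there. The pairing comes from the data, not the labels.

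All 10 genes are named; in each wider list the 3 genes called in each direction with the smallest adjusted p are named, and the 5 genes most like hsp-4 and xbp-1 in pattern, except that abu-4, at under 0.05 CPM, is left out. The members, lists and tests were chosen with earlier results of these data known. Alternatives were size factors of relative log expression (RLE), no filter, DESeq2 1.42.0, a replicate block, only the 2 groups compared, and leaving out each library; scaling by library totals and leaving out 5 libraries were chosen after seeing the data.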

Additional observations from a re-analysis of the deposited data

How the results depend on the processing

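Of 2170 refits of 150 member values, 2060 kept their side of the threshold, 75 lost the call, 29 gained one and 6 reversed. Most of the 150 values were not called in the main fit and had no call to lose. The losses fell on the minority that was called, so the total of 2060 does not measure how firm the calls were. Of the 2060, 208 changed sign with a call in neither fit. With library totals alone crt-1 turned to 0.34 at day 15 and 0.35 at day 17, enpl-1 to 0.38 and 0.21, and pdi-2 to 0.043 at day 17, all against day 1. Without the 5 libraries low in long transcripts atf-6 turned to 0.28 at day 17. All counts of members called for BRE against OP50 stayed 0 in every alternative.

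Counts of members called on OP50 against day 1 moved as follows; the cause was not tested. At day 6, 4 lower became 2 with totals alone and 2 with no filter, and 0 higher became 2 without the 5 libraries. At day 11, 1 lower became 0 with totals, 2 with only the 2 groups and 0 without the 5 libraries, and 0 higher became 1 with totals and 1 without the 5. At day 15, 1 higher became 3 with totals and 2 without the 5, and 1 lower became 0 with totals. At day 17, 1 higher became 3 with totals, 0 with only the 2 groups and 2 without the 5, and 4 lower became 2 with RLE, 0 with totals, 2 with no filter, 2 with DESeq2, 1 with only the 2 groups and 2 without the 5. Wider lists at day 17 went from 7 higher to 25 and from 26 lower to 8 with totals, and to 15 lower with only the 2 groups. From day 6 to day 11, 1 higher became 3 with totals. From day 6 to day 17 on OP50, 2 higher became 1 with no filter and 1 with only the 2 groups, and 1 lower became 0 with totals and 0 with only the 2 groups. On BRE, 0 lower became 1 with only the 2 groups and 2 without the 5.

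With a replicate block, members lower against day 1 went from 1 to 3 at day 11, from 1 to 3 at day 15 and from 4 to 6 at day 17. Replicate numbers missed the pairing rule of 0.1 in these comparisons. For day 11 and day 1, same-numbered correlations were 0.068 to 0.176, against at most 0.039 for other numbers. Those of day 15 and day 1 were -0.171 to 0.081, and those of day 17 and day 1 were 0.015 to 0.232. The block gave 2 higher from day 6 to day 11 and 2 lower from day 6 to day 17 on BRE, and changed no other count of member calls by over 1.5 times.

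Leaving out each library in turn, members lower against day 1 ranged from 2 to 2 at day 6, 0 to 1 at day 11, 0 to 2 at day 15 and 1 to 6 at day 17, and members higher from 0 to 1 at day 15 and 0 to 1 at day 17. Any difference among days ranged from 2 to 6. Wider lists lower at day 17 ranged from 15 to 25. Members higher ranged from 0 to 1 from day 11 to day 15, from 1 to 2 from day 6 to day 17 on OP50 (lower 0 to 4) and from 1 to 2 on BRE. The planned search for promoter motifs was not run. Depth was high, so the spread between libraries, not counting error, sets the limits.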
